A study of Pelodiscus sinensis with 18 samples.

Results

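The livers of Chinese soft-shelled turtles (Pelodiscus sinensis) exposed to niclosamide at 10 µg per L were compared with livers of unexposed controls, by RNA sequencing of 3 libraries per group. The comparison covered every gene of the deposited table and used 6 of the 18 libraries of the series. All animals are labelled wild type (WT), and by their labels the groups differed only in the niclosamide concentration, 0 or 10 µg per L (nic10). The libraries also differed in a way that the labels do not name, which divided the controls and is described below. The 3 liver libraries at 50 µg per L (nic50) shared the estimate of the spread and are given side by side, and 6 gut libraries, 3 control and 3 nic10, served for 1 test between tissues. The labels give no sex, age or time of exposure, and separate animals are not stated. The p-values are therefore based on variation among libraries that could be technical.

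Niclosamide is a salicylanilide used against tapeworms and, in water, against snails. It carries protons across the inner mitochondrial membrane and so uncouples respiration from ATP formation. The liver is the organ that takes up and conjugates such compounds, and it also makes most plasma proteins, bile acids and stored glycogen. The title of the series sets the transcriptomes beside antioxidant defence and tissue structure, so genes of those processes were listed along with the hormones, immune proteins and cell type markers of liver.

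The tissue label was checked against hepatocyte markers, of which 23 of 24 in the table were detected well enough to be tested. Their summed level was 89600 to 102000 FPKM in the controls and 97680 to 114300 FPKM at nic10. FPKM, the number of fragments scaled to transcript length and library size, is the unit of all levels given here. FGB, the fibrinogen beta chain, had 17480 to 21910 FPKM in the controls and 23100 to 26700 FPKM at nic10. FGG, the gamma chain, had 22330 to 24620 and 25560 to 40690 FPKM. Most markers went the other way, with 8 of the 23 above 0 and 15 below 0 in log2 fold change. Their median was -0.17, and 0 passed the threshold used below. In 3 markers all nic10 libraries lay above all controls and in 6 below, against 9.54% and 4.24% of all tested features.

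Some libraries stood apart within their group. Control libraries 2 and 3 correlated with each other at a Pearson r of 0.991 across 10892 features, while control 1 correlated with them at 0.962 and 0.957. The 3 nic50 libraries correlated at 0.990 to 0.993, and the 3 nic10 libraries at 0.929 to 0.968. A set of 28 genes had at least 1 FPKM in controls 2 and 3 and less than 0.1 of that level in each of the other 7 livers. Its summed level was 456.6 and 426.7 FPKM in controls 2 and 3 and 1.07 to 3.16 FPKM in the other livers, and 1 of the 28 passed the expression filter, with an adjusted p above the threshold. Transcripts of the 13 mitochondrial protein genes took 20.4%, 15.7% and 14.9% of the FPKM sum in controls 1, 2 and 3, and 7.32%, 17.4% and 10.3% in nic10 libraries 1, 2 and 3. FPKM sums of the 6 libraries ran from 588542 to 699273, and 9440 to 10539 features reached 1 FPKM. The number of reads behind a value is unknown.

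At nic10, 116 of 10892 tested features passed an adjusted p of 0.05, which is 1.07% of those tested. Of these 80 (0.734%) were higher and 36 (0.331%) were lower than in the controls. The test was limma on log2(FPKM + 1), with p-values adjusted by the Benjamini-Hochberg method over all tested features. At an unadjusted p under 0.05 there were 1475, of which 958 (8.8%) were higher and 517 (4.75%) were lower. These shares over all tested features, adjusted and unadjusted, are the background of every list count below. In all 116 the 3 nic10 libraries lay on 1 side of the 3 controls, as they did in 13.8% of all tested features. Of the 116, 7 passed the expression filter of 1 FPKM in 3 of 9 livers only with the help of nic10 libraries, COLXVI, BHLHA15, MARCO and ADAMTS15 among them, and 4 of the 7 were below 1 FPKM in every other liver. The median log2 fold change was 1.44 over the 80, -1.47 over the 36 and 0.04 over all tested features. Since 1 was added before taking logs, changes of weakly expressed genes are understated. Of the 116, 68 have a gene symbol, 53 of them higher and 15 lower. In bulk tissue a lower level cannot be told apart between fewer cells of a type and less RNA per cell.

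**Figure D1:**
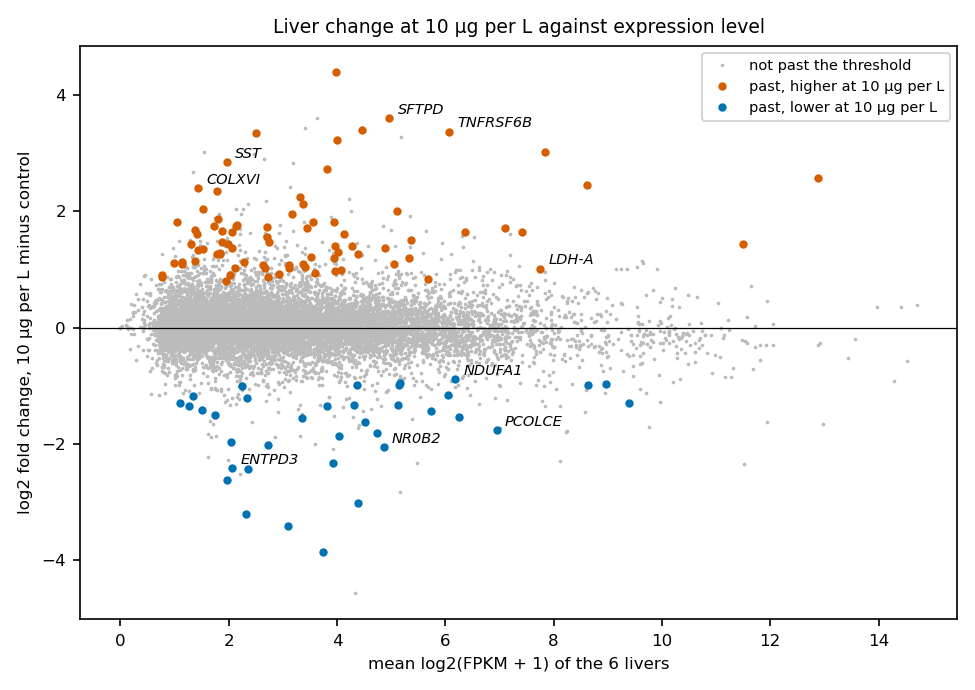
Log2 fold change at 10 µg per L minus control against the mean log2(FPKM + 1) of the 6 livers, 1 point for each of 10892 features. Orange points are the 80 features past the threshold and higher, blue points the 36 past it and lower, and grey points the rest.

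The count depended on single libraries. Without control 2 it was 17, without control 3 it was 25 and without nic10 library 3 it was 63, whereas without control 1 it was 569 and without nic10 library 1 it was 501. Of the 116, 16 passed in all 6 fits that left out 1 library. Against 80 higher and 36 lower, trimmed-mean scaling gave 40 and 36. The split was 63 and 62 after quantile normalization, 1187 and 1617 with library weights, and 266 and 303 without control 1. The library weights were 0.193, 4.18 and 0.34 for nic10 libraries 1, 2 and 3. They were 0.156, 1.81 and 1.46 for controls 1, 2 and 3, so the weighted comparison rests mainly on nic10 library 2 and controls 2 and 3. With controls 2 and 3 averaged into 1 value and the nic50 livers into another, 7 features passed. The mitochondrial RNA features given below are not counted in what follows. Of 72 features named here and past the threshold, 9 passed in all 6 fits, namely SST, COLXVI, OLFML3, RARRES1, TSTD3, PCOLCE, ENTPD3 and the unnamed LOC102445604 and LOC102445731. In these fits too COLXVI passed the filter only with the help of nic10 libraries. Each of these fits kept control 2 or control 3, which correlated at 0.991. With the look-alike livers averaged, OLFML3, RARRES1, TSTD3 and PCOLCE did not pass. TMEM119, IL17REL and LOC102461675 lost their call only without control 2. The other 60 lost it without control 2 and also without control 3, and 45 lost it without nic10 library 3, where MARCO and ADAMTS15 were not tested. The nic50 livers stayed in all these fits and shared the estimate of the spread. In a fit of the 6 compared libraries alone 20 features passed, and 9 of the 72 did. There PCOLCE, EPO, NR0B2 and C6 did not pass, with limma adjusted p-values of 0.0562, 0.0853, 0.0933 and 0.1415, while TMEM119 did, at 0.0372.

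SST encodes somatostatin, the peptide that restrains secretion of growth hormone, insulin, glucagon and many gut hormones. It had 0, 0.799 and 0.708 FPKM in controls 1, 2 and 3 and 11.7, 8.36 and 8.76 FPKM in nic10 libraries 1, 2 and 3. All nic10 libraries stood far above all controls, and the 3 of them lay close together. SST rose by a log2 fold change of 2.85 (SE 0.26, limma adjusted p = 0.00107), and without any 1 library its adjusted p stayed at or below 0.00415. At nic50 it had 1.34, 2.46 and 1.60 FPKM.

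EPO, the hormone that drives red blood cell formation, had 8.29, 4.20 and 3.56 FPKM in the controls and 15.8, 17.3 and 24.5 FPKM at nic10. The groups did not overlap, although control 1 lay at about the level of the nic50 livers, which had 8.14 to 9.60 FPKM. EPO rose by 1.72 (SE 0.27, limma adjusted p = 0.0195), with an adjusted p of 0.0950 without control 2, 0.0806 without control 3 and 0.0508 without nic10 library 3. GUCA2A (LOC102460033), which encodes guanylin, a peptide that acts on guanylate cyclase C and the salt and water balance of epithelia, went the other way. Its levels were 6.43, 7.10 and 8.14 FPKM in the controls and 1.28, 2.37 and 0.206 FPKM at nic10, a fall of -1.96 (SE 0.31, limma adjusted p = 0.0195). Among 13 tested genes of peptide hormones and their receptors, these 3 passed, 2 higher and 1 lower, against 0.734% and 0.331% of all tested features. The list's median log2 fold change was 0.21.

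EPO also belongs to the hypoxia list, of which 3 of 30 tested members rose and 0 fell. At an unadjusted p under 0.05, 8 were higher and 1 lower, against 8.8% and 4.75% of all tested features. The calls besides EPO were LDH-A, the lactate dehydrogenase chain that turns pyruvate into lactate, and ERO1A, an oxidase that forms disulfide bonds in the endoplasmic reticulum. LDH-A had 151, 164 and 138 FPKM in the controls and 384, 230 and 324 FPKM at nic10. Every nic10 library was above the highest control, with library 2 the nearest to it. LDH-A rose by 1.02 (SE 0.21, limma adjusted p = 0.0479), close to the threshold. ERO1A had 8.58, 11.1 and 6.75 FPKM in the controls and 26.4, 18.3 and 30.3 FPKM at nic10, a rise of 1.40 (SE 0.23, limma adjusted p = 0.0224). The median of the list was 0.25, and 7 of 30 members had all nic10 libraries above all controls, against 9.54% of all tested features. The glycolysis list held LDH-A as the single call among 21 tested genes and had a median of -0.21. Its next member by p, PFKFB4, had 3.65, 8.18 and 6.25 FPKM in the controls and 10.0 to 11.1 FPKM at nic10 (limma adjusted p = 0.209).

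**Figure D2:**
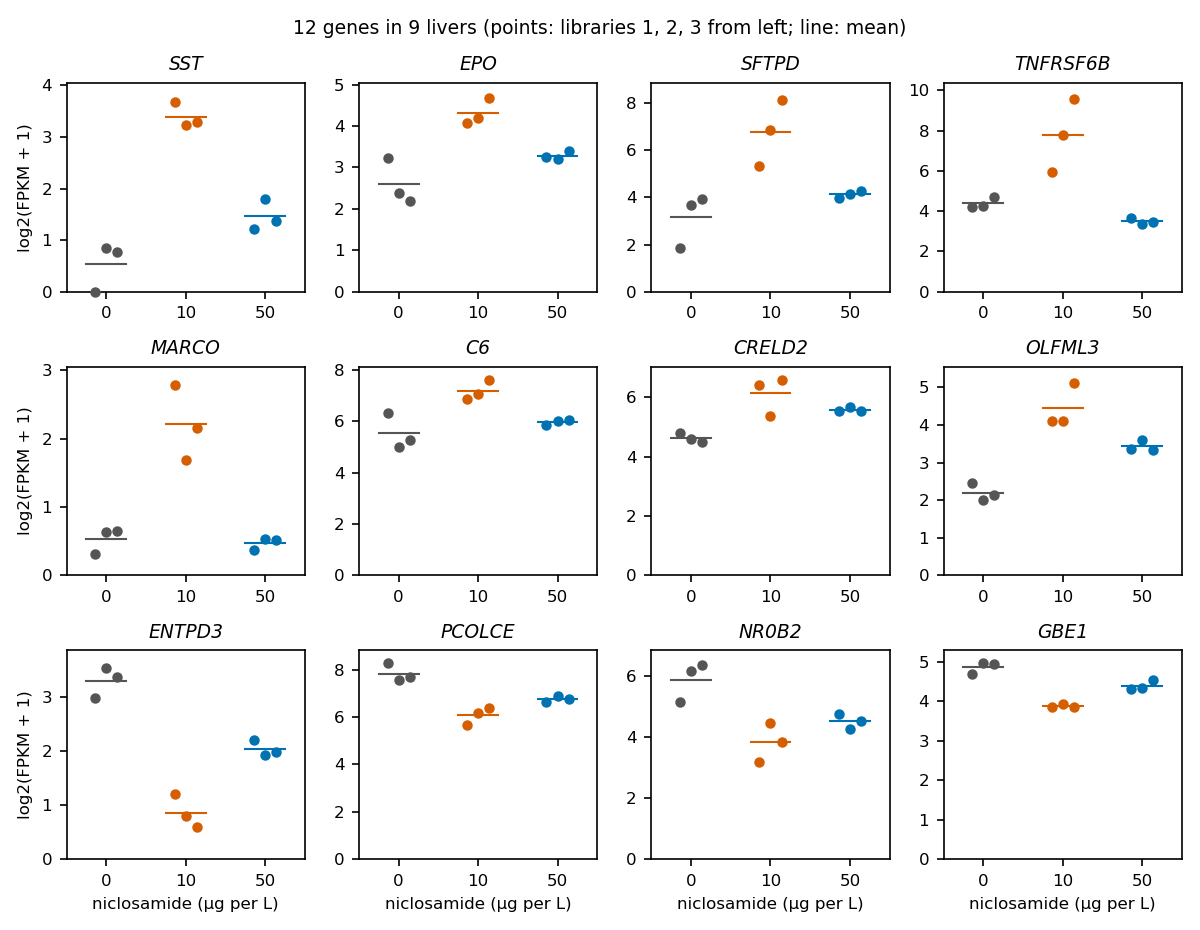
Log2(FPKM + 1) of 12 genes in the 9 liver libraries at 0, 10 and 50 µg per L, with libraries 1, 2 and 3 from left to right and the group mean as a line. For each gene the 3 libraries at 10 µg per L lie on 1 side of the 3 controls, and most nic50 means lie between the other groups.

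SFTPD, surfactant protein D, is a collectin that binds sugars on microbes. Its levels were 2.62, 11.9 and 14.4 FPKM in the controls and 39.5, 115 and 278 FPKM at nic10. All nic10 libraries were above all controls, and both groups were widely spread. SFTPD rose by 3.61 (SE 0.65, limma adjusted p = 0.0313), with 0.0885 without control 2, 0.0649 without control 3 and 0.0662 without nic10 library 3, and it also lost its call without nic10 library 2. TNFRSF6B is a soluble decoy receptor for ligands of the tumour necrosis factor family. It had 17.7, 17.96 and 24.7 FPKM in the controls and 60.4, 218 and 753 FPKM at nic10. The rise of 3.37 (SE 0.66, limma adjusted p = 0.0417) thus came with a wide spread between the nic10 libraries, and the nic50 livers had 9.37 to 11.5 FPKM, below every control.

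Among the 46 tested genes of inflammation and microbe sensing 3 rose and 0 fell. At an unadjusted p under 0.05, 18 were higher and 0 lower, against 8.8% and 4.75% of all tested features. The other 2 calls besides TNFRSF6B were TLR5, the receptor for bacterial flagellin, and CISH, a feedback inhibitor of cytokine signalling through STAT5. TLR5 had 1, 1.26 and 1.70 FPKM in the controls and 4.02, 3.92 and 6.03 FPKM at nic10, a rise of 1.28 (SE 0.24, limma adjusted p = 0.0332). CISH had 0.851, 2.05 and 2.08 FPKM in the controls and 6.88, 5.39 and 4.96 FPKM at nic10, a rise of 1.37 (SE 0.23, limma adjusted p = 0.0209). CISH was higher still at nic50, with 13.02 to 13.7 FPKM. Over the whole list the median was 0.47, and 15 of 46 members had all nic10 libraries above all controls, against 9.54% of all tested features. The mean deviation of the list from the control mean was 0.15, 0.55 and 0.77 in nic10 libraries 1, 2 and 3, so library 1 contributed least.

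MARCO, a scavenger receptor of macrophages that binds bacteria, had 0.247, 0.547 and 0.572 FPKM in the controls and 5.88, 2.23 and 3.46 FPKM at nic10. It was near 0 in every control and in every nic50 liver (0.289 to 0.451 FPKM), and it rose by 1.68 (SE 0.26, limma adjusted p = 0.0150) at nic10. MARCO passed the expression filter only through the nic10 libraries, so its call is conditioned on the group in which it was high, and it was not tested in the fits that left out a nic10 library. It was the only one of 7 tested macrophage markers to pass, and their summed level of 124.8 to 146.5 FPKM in the controls overlapped that of 111 to 177.7 FPKM at nic10. C1QB (LOC102446475), another marker, had 12.8, 19.8 and 20.8 FPKM against 24.1, 29.9 and 24.9 FPKM (limma adjusted p = 0.268).

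In the complement list 1 of 18 tested genes rose and 0 fell. At an unadjusted p under 0.05, 7 were higher and 0 lower, against 8.8% and 4.75% of all tested features. C6 and C9 are subunits of the pore that complement inserts into membranes. C6 had 78.2, 31.4 and 37.8 FPKM in the controls and 115, 133 and 195 FPKM at nic10. Control 1 stood well above the other controls but below every nic10 library, and C6 rose by 1.64 (SE 0.31, limma adjusted p = 0.0367). C9 had 648, 502 and 499 FPKM in the controls and 1001, 1012 and 1622 FPKM at nic10, a difference of 1.11 that narrowly missed the threshold (SE 0.23, limma adjusted p = 0.0526). CD55, which protects host cells from complement, had 0.418 to 0.911 FPKM and 1.56 to 2.70 FPKM (limma adjusted p = 0.0873). The median of the list was 0.41, and 6 of its 18 members had all nic10 libraries above all controls, against 9.54% of all tested features.

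Outside those lists BCL2L1, an inhibitor of apoptosis, had 10.9, 8.40 and 8.10 FPKM in the controls and 17.7, 29.5 and 50.0 FPKM at nic10, a rise of 1.61 (SE 0.30, limma adjusted p = 0.0354). It was the only call among 35 tested genes of the p53 and apoptosis list. The nic50 livers had 9.57 to 10.8 FPKM, at the level of the controls. IL17REL, a relative of the interleukin 17 receptors, and UNC93A, a membrane protein, were named after their values were seen. IL17REL had 10.1, 10.3 and 12.4 FPKM in the controls and 29.5, 24.9 and 38.3 FPKM at nic10, with a tight control group. Its rise was 1.40 (SE 0.20, limma adjusted p = 0.0115). UNC93A had 16.3, 16.7 and 19.3 FPKM in the controls and 46.6, 34.1 and 63.9 FPKM at nic10, and 9.45 to 11.4 FPKM at nic50. None of 24 tested interferon response genes passed with limma, 6 of them reaching an unadjusted p under 0.05, 3 in each direction.

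Genes of the secretory pathway were mostly above 0, with few calls. The unfolded protein response is the programme by which a cell with overloaded endoplasmic reticulum raises its chaperones and folding enzymes. Of 53 tested genes of this list 2 rose, CRELD2 and ERO1A, and 0 fell. At an unadjusted p under 0.05, 22 were higher and 1 lower, against 8.8% and 4.75% of all tested features. The list's median was 0.44, with 47 members above 0, against 55.4% of all tested features. In 21 members all nic10 libraries lay above all controls, against 9.54% of all features. The mean deviation from the control mean was 0.36, 0.20 and 0.85 at nic10 (libraries 1, 2 and 3), and the controls stood at -0.15, 0.08 and 0.07. With library weights, which rest mainly on nic10 library 2, the lowest of the 3 here, the median was 0.13.

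CRELD2, a chaperone-like protein of the endoplasmic reticulum, had 26.9, 22.9 and 21.4 FPKM in the controls and 84.7, 40.3 and 95.2 FPKM at nic10. Library 2 was the lowest of the nic10 group, and CRELD2 rose by 1.504 (SE 0.28, limma adjusted p = 0.0338). The adjusted p was 0.146 without control 2, 0.149 without control 3 and 0.0841 without nic10 library 3. SEC61A1, the pore through which new proteins enter the endoplasmic reticulum, had 62.6, 67.8 and 59.9 FPKM and 133, 84.7 and 181 FPKM (limma adjusted p = 0.0957). Library 2 was again the nic10 library nearest to the controls, as it was the lowest nic10 library in 42 of the 80 features that rose.

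Outside that list, BHLHA15, a transcription factor of highly secretory cells, had 1.17, 0.205 and 0.355 FPKM in the controls and 2.66, 2.71 and 6.505 FPKM at nic10. It rose by 1.62 (SE 0.31, limma adjusted p = 0.0354). Outside nic10 only control 1 reached 1 FPKM, so this call is conditioned on the group in which BHLHA15 was high. Another 3 calls outside the list, CNPY2, RCN1 and MLEC, were named after their values were seen. CNPY2, a resident protein of the endoplasmic reticulum, had 23.9 to 26.6 FPKM in the controls and 69.5, 39.8 and 77.8 FPKM at nic10, a rise of 1.20. RCN1, a calcium-binding protein of the endoplasmic reticulum, had 1.23 to 1.67 FPKM in the controls and 5.07, 3.81 and 8.55 FPKM at nic10, a rise of 1.44. MLEC, a lectin that binds newly added glycans and whose gene is on chromosome 15, had 5.46 to 7.03 FPKM and 11.2 to 19.3 FPKM, a rise of 1.09 (SE 0.21, limma adjusted p = 0.0384). In each of these genes the groups were separate, and nic10 library 3 was the highest.

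Chaperones and protein turnover outside the endoplasmic reticulum showed no call. None of 37 heat shock and cytosolic chaperone genes passed with limma, with 4 higher and 2 lower at an unadjusted p under 0.05 and a median of 0.12. None of 36 proteasome genes passed, 2 being higher at an unadjusted p under 0.05. PSMD14, a proteasome subunit that removes ubiquitin chains, had 13.4 to 15.7 FPKM in the controls and 30.3, 18.4 and 34.8 FPKM at nic10 (limma adjusted p = 0.106). None of 79 autophagy and lysosome genes passed, with 2 higher and 7 lower at an unadjusted p under 0.05. The autophagy receptor CALCOCO2 had 142, 197 and 215 FPKM in the controls and 109, 101 and 65.5 FPKM at nic10 (limma adjusted p = 0.0770). The lysosomal enzymes TPP1 (LOC102459935), a peptidase, and GAA, which digests glycogen, had adjusted p-values of 0.0821 and 0.0900, with all nic10 libraries below all controls in both.

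Calls among regulators and enzymes of bile acid, lipid and carbohydrate metabolism were few, and they were mostly falls. NR0B2, the nuclear receptor SHP, represses bile acid synthesis in response to bile acids. It had 34.4, 70.8 and 81.5 FPKM in the controls and 8.17, 20.9 and 13.3 FPKM at nic10. Control 1 was below the other controls but above every nic10 library, and NR0B2 fell by -2.06 (SE 0.36, limma adjusted p = 0.0263). Its adjusted p was 0.122 without control 2, 0.120 without control 3 and 0.0682 without nic10 library 3. It was the 1 call among 27 tested genes of bile acid and sterol transport, whose median was 0.00. ABCB11, the pump that exports bile salts, had 46.4, 98.4 and 95.7 FPKM against 38.6, 53.6 and 22.1 FPKM, and the groups overlapped (limma adjusted p = 0.186).

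ADIPOR2, a receptor for adiponectin that favours fatty acid oxidation in liver, had 29.0, 59.3 and 67.8 FPKM in the controls and 13.7, 15.6 and 10.7 FPKM at nic10. It fell by -1.82 (SE 0.30, limma adjusted p = 0.02), and the nic50 livers were also below the controls, at 14.7 to 19.7 FPKM. It was the only call among 41 tested genes of adiponectin, insulin and nuclear hormone receptors. RXRG, a partner of many nuclear receptors, had 7.26, 13.1 and 17.1 FPKM and 3.96, 6.15 and 4.90 FPKM (limma adjusted p = 0.0986). As with NR0B2 and ADIPOR2, control 1 was the lowest control.

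ELOVL5, an elongase of polyunsaturated fatty acids, was the call among 29 tested genes of fatty acid and triglyceride synthesis. It had 37.2, 64.6 and 67.9 FPKM in the controls and 21.1, 22.8 and 19.3 FPKM at nic10, a fall of -1.34 (SE 0.23, limma adjusted p = 0.0236). FADS2, a desaturase that acts in the same pathway, had 1.26, 9.26 and 11.6 FPKM in the controls and 0.869, 0.232 and 0.217 FPKM at nic10 (log2 fold change -2.23, SE 0.52, limma adjusted p = 0.0789). Control 1 was close to the nic10 libraries for FADS2. SREBF1, the transcription factor that turns on fatty acid synthesis, had 3.59 to 3.91 FPKM in the controls and 6.57, 9.44 and 15.01 FPKM at nic10, which narrowly missed the threshold (log2 fold change 1.19, limma adjusted p = 0.0526).

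None of 38 genes of fatty acid oxidation and ketogenesis passed with limma, with 2 higher and 5 lower at an unadjusted p under 0.05. ACADVL, which starts the oxidation of long chains in mitochondria, had 189, 234 and 286 FPKM against 157, 169 and 119 FPKM (limma adjusted p = 0.173). SLC27A2, which activates long fatty acids, had 140 to 150 FPKM against 102, 105 and 70.2 FPKM (adjusted p = 0.140 by limma). CD36, a fatty acid transporter, had overlapping groups (limma adjusted p = 0.128). None of 24 cholesterol synthesis genes passed, with 2 higher and 2 lower at an unadjusted p under 0.05. MVK and MVD, enzymes of the mevalonate pathway, had log2 fold changes of 0.95 and 1.10, and DHCR7, which makes the last step to cholesterol, had -0.58, with adjusted p-values of 0.0770, 0.114 and 0.255 in that order. None of 18 apolipoprotein and lipoprotein assembly genes passed, 4 in each direction being at an unadjusted p under 0.05.

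In carbohydrate metabolism GBE1, the glycogen branching enzyme, fell. It had 24.8, 30.5 and 29.5 FPKM in the controls and 13.5, 14.3 and 13.4 FPKM at nic10, with little spread in either group. The change was -0.99 (SE 0.16, limma adjusted p = 0.0209), and the adjusted p was 0.120 without control 2, 0.106 without control 3 and 0.0521 without nic10 library 3. Of 18 tested genes of gluconeogenesis and glycogen it was the only call, the median was -0.15, and 6 had all nic10 libraries below all controls, against 4.24% of all features. Among these were GYS2, the liver glycogen synthase (22.4 to 29.4 against 13.04 to 19.9 FPKM, limma adjusted p = 0.155), and SLC37A4, the glucose 6-phosphate carrier (79.9 to 127 against 46.5 to 66.8 FPKM, limma adjusted p = 0.110).

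None of 28 citric acid cycle genes passed, with 2 higher and 7 lower at an unadjusted p under 0.05, against 8.8% and 4.75% of all tested features. PC, pyruvate carboxylase, which feeds both the cycle and glucose formation, had 109, 98.1 and 134 FPKM in the controls and 70.3, 59.9 and 61.4 FPKM at nic10. The groups were separate and the difference of -0.82 narrowly missed the threshold (SE 0.17, limma adjusted p = 0.0532). PDHB, a subunit of pyruvate dehydrogenase, had 20.4, 22.7 and 32.4 FPKM against 15.1 to 16.9 FPKM (limma adjusted p = 0.199). PDK4, the kinase that inhibits that enzyme, had 3.97 FPKM in control 1 and 20.1 and 17.4 FPKM in controls 2 and 3, against 2.46 to 5.35 FPKM at nic10 (adjusted p = 0.197 by limma).

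HSD3B1 (LOC102453952) makes progesterone and androstenedione from their precursors. It had 3.46, 4.98 and 5.80 FPKM in the controls and 0.674, 1.88 and 0.643 FPKM at nic10, a fall of -1.51 (SE 0.25, limma adjusted p = 0.0230). At nic50 it was above every control, at 19.6, 16.6 and 16.1 FPKM, and it was the only one of the 116 features past the threshold in opposite directions at the 2 concentrations. CYP17A1 (LOC102457785), which opens the way to androgens, had 1.57 FPKM in control 1, 19.9 and 24.4 FPKM in controls 2 and 3, and 0.445 to 1.86 FPKM at nic10 (limma adjusted p = 0.127). It is one of the 28 genes present in controls 2 and 3. AKR1D1, which reduces steroid hormones and bile acid intermediates, had 75.4, 46.9 and 44.0 FPKM against 78.0 to 85.6 FPKM (adjusted p = 0.224 by limma). Of 17 tested steroid genes 1 passed.

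CSAD and SMS also fell. CSAD, the enzyme that commits cysteine to taurine, had 43.1, 51.6 and 53.4 FPKM in the controls and 24.4, 29.7 and 20.97 FPKM at nic10, a fall of -0.96 (SE 0.18, limma adjusted p = 0.0354). SMS, spermine synthase, had 46.6 to 53.8 FPKM and 28.6, 25.3 and 19.6 FPKM, a fall of -0.99 (SE 0.19, limma adjusted p = 0.0354). The groups were separate in both. None of 54 genes of the urea cycle and amino acid breakdown passed, with 3 higher and 4 lower at an unadjusted p under 0.05.

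Mitochondrial genes, the compartment on which niclosamide acts, held 1 call in the lists. NDUFA1, an accessory subunit of complex I, had 104, 103 and 88.3 FPKM in the controls and 63.3, 48.0 and 47.4 FPKM at nic10. It fell by -0.89 (SE 0.18, limma adjusted p = 0.0437), and without control 2 the adjusted p was 0.203. Of 69 tested nuclear genes of the respiratory chain it was the only one to pass, and the median was -0.21. In this list 11 members lay above 0 and 58 below, against 55.4% of all tested features above 0. At an unadjusted p under 0.05, 0 were higher and 7 lower, against 8.8% and 4.75% of all tested features. In 0 members all nic10 libraries lay above all controls and in 9 below, against 9.54% and 4.24%. The mean deviation of the list was 0.17 in nic10 library 1 and -0.51 and -0.39 in libraries 2 and 3, so the nic10 libraries did not move together. NDUFS7 and NDUFA2, other subunits of complex I, had 59.9 to 62.0 against 24.3 to 49.1 FPKM (limma adjusted p = 0.176) and 68.2 to 104 against 40.7 to 64.7 FPKM (adjusted p = 0.170 by limma).

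The 13 protein genes of the mitochondrial genome split the nic10 libraries in another way. COX1, the catalytic subunit of complex IV, had 18080, 13440 and 12000 FPKM in the controls and 2405, 11340 and 3392 FPKM at nic10. ND1, a core subunit of complex I, had 6158 to 7982 FPKM in the controls and 1253, 5482 and 1630 FPKM at nic10. Library 2 was thus close to the controls while libraries 1 and 3 were far below, and neither gene passed (limma adjusted p = 0.145 and 0.125). ATP8, a small subunit of ATP synthase, had 922, 563 and 603 FPKM in the controls and 947, 1330 and 2045 FPKM at nic10 (adjusted p = 0.196 by limma). None of the 13 passed, with 1 higher and 3 lower at an unadjusted p under 0.05, and the median was -0.57. With library weights, which rest mainly on nic10 library 2, the median was 0.13. The mean deviation of the 13 in library 2 itself was 0.14. As shares of the library these transcripts also set the FPKM of all other genes, and their part in the other results was not tested. Unnamed mitochondrial RNA features outside the lists passed. The largest rise was 3.23 (limma adjusted p = 0.00358), with 3.66 to 4.64 FPKM in controls and 24.25 to 72.3 FPKM at nic10. Another rose by 2.74 (limma adjusted p = 0.0116), with 3.12 to 6.48 FPKM in controls and 17.8 to 54.5 FPKM at nic10. A fall of -2.33 (limma adjusted p = 0.0232) went with 18.9 to 44.8 FPKM in controls and 3.14 to 10.9 FPKM at nic10. In each, nic10 library 2 lay nearest to the controls.

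None of 23 genes of uncoupling and mitochondrial biogenesis passed with limma, with 1 in each direction at an unadjusted p under 0.05. SLC25A14, a carrier related to the uncoupling proteins, had 3.01 to 4.33 FPKM and 6.11 to 9.55 FPKM (limma adjusted p = 0.173). ESRRA, a nuclear receptor that drives mitochondrial genes, had 56.6, 85.0 and 86.7 FPKM against 60.4, 47.1 and 44.0 FPKM (adjusted p = 0.254 by limma). TFB2M, a mitochondrial transcription factor, had an adjusted p of 0.451. None of 68 mitochondrial ribosomal protein genes passed, 2 being higher and 1 lower at an unadjusted p under 0.05. TOMM40L, a relative of the import pore of the outer membrane, was named after its values were seen, and rose by 1.31 (SE 0.26, limma adjusted p = 0.0417) from 8.22 to 11.3 FPKM in the controls to 19.3, 19.7 and 38.4 FPKM at nic10.

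Genes of the extracellular matrix included 3 calls among 56 tested, 2 higher and 1 lower, against 0.734% and 0.331% of all tested features. The 2 higher calls include COLXVI, which passed the expression filter only with the help of the nic10 libraries. PCOLCE, which speeds the cleavage of procollagen by its C-proteinase, had 305, 189 and 203 FPKM in the controls and 49.5, 70.5 and 82.1 FPKM at nic10. The groups were wide apart, and PCOLCE fell by -1.77 (SE 0.24, limma adjusted p = 0.0103), with an adjusted p of at most 0.0364 without any 1 library. In a fit of the 6 compared libraries alone its limma adjusted p was 0.0562. OLFML3, a secreted matrix protein, had 4.45, 2.98 and 3.43 FPKM in the controls and 16.4, 16.1 and 34.0 FPKM at nic10. It rose by 2.25 (SE 0.27, limma adjusted p = 0.00575) and was also higher at nic50, with 9.17 to 11.2 FPKM.

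COLXVI, which the table lists under that name and which was taken as the collagen XVI chain, had 0.183, 0.381 and 0 FPKM in the controls and 4.78, 5.86 and 5.003 FPKM at nic10. It was close to 0 in every control and tightly grouped at nic10, and it rose by 2.40 (SE 0.24, limma adjusted p = 0.00194). Outside nic10 only nic50 library 3 reached 1 FPKM, at 1.02 FPKM. COLXVI thus passed the filter with the help of the nic10 libraries, and its call is conditioned on the group in which it was high. ADAMTS15, a matrix protease named after its values were seen, had 0.210 to 0.360 FPKM in the controls and 1.11 to 1.49 FPKM at nic10, a rise of 0.88 (SE 0.18, limma adjusted p = 0.0474). It too passed the filter only through the nic10 libraries. The median of the matrix list was 0.15. Markers of stellate cells and fibroblasts, the main matrix-forming cells of liver, gave no call with limma among 13 tested. At an unadjusted p under 0.05, 5 were higher and 1 lower, against 8.8% and 4.75% of all tested features. Their summed level was 104.6 to 142.5 FPKM in the controls and 173.5 to 197.8 FPKM at nic10, so the sums did not overlap, and the part of these cells in the matrix calls was not tested. DCN, decorin, had 3.38 to 4.02 FPKM and 6.67 to 11.9 FPKM (limma adjusted p = 0.0823). COL3A1 (LOC102447978), a fibrillar collagen, had 0.496 to 0.690 FPKM and 1.66 to 2.78 FPKM (adjusted p = 0.0773 by limma), and THY1, the most abundant marker of the list, had 82.3 to 125 FPKM and 136 to 151 FPKM (adjusted p = 0.231 by limma).

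No gene of antioxidant defence passed at nic10. Of 50 tested genes of the antioxidant and NFE2L2 list, 7 were higher and 7 lower at an unadjusted p under 0.05 in limma, against 8.8% and 4.75% of all tested features. The list's median was 0.02 against 0.04 over all features. SOD1, the cytosolic superoxide dismutase, had 433, 488 and 424 FPKM in the controls and 463, 269 and 174 FPKM at nic10 (log2 fold change -0.68, SE 0.30, limma adjusted p = 0.350). Its nic10 libraries ran from within the control range to well below it. SOD2, the mitochondrial form, had 76.7 to 104 FPKM and 59.4 to 110 FPKM (-0.12, SE 0.23, adjusted p = 0.897 by limma). CAT, catalase, which breaks down hydrogen peroxide, had 630 to 704 FPKM and 1053, 895 and 623 FPKM (0.35, SE 0.22, adjusted p = 0.545 by limma).

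GPX1, a glutathione peroxidase, had 158, 166 and 116 FPKM in the controls and 299, 202 and 221 FPKM at nic10. The groups were separate, but the difference of 0.71 (SE 0.21, limma adjusted p = 0.161) did not pass. GSR, which regenerates glutathione, had 2.99 to 4.52 and 2.61 to 6.57 FPKM, NFE2L2, the transcription factor of the pathway, had 29.9 to 42.4 and 31.9 to 40.9 FPKM, and KEAP1 (LOC102454403), its inhibitor, had 3.50 to 6.004 and 4.41 to 7.43 FPKM. All 3 overlapped between the groups, with adjusted p-values of 0.891, 0.994 and 0.684. HMOX1 and NQO1 are targets of NFE2L2 that degrade heme and reduce quinones. HMOX1 had 186, 356 and 362 FPKM in the controls and 223, 172 and 130 FPKM at nic10 (-0.75, SE 0.28, limma adjusted p = 0.263), and NQO1 had 6.41 to 11.3 and 5.39 to 10.3 FPKM (adjusted p = 0.970 by limma). The member of the list with the smallest p was HMOX2, the constitutive heme oxygenase, at 99.9 to 131 and 152 to 241 FPKM (0.79, SE 0.21, limma adjusted p = 0.108), and TXNRD2, the mitochondrial thioredoxin reductase, had 5.34 to 7.70 and 9.48 to 10.5 FPKM (adjusted p = 0.152 by limma). Of the genes named here, SOD1, HMOX1, HMOX2 and TXNRD2 each passed in 1 of the 6 fits that left out 1 library. SOD2, CAT, GPX1, GSR, NFE2L2, KEAP1 and NQO1 passed in none of these 6. Among 11 other alternative fits SOD1, CAT, GPX1, HMOX1, NQO1, HMOX2 and TXNRD2 each passed in 1. SOD2, GSR, NFE2L2 and KEAP1 passed in none of those. NQO1 passed with library weights, at a log2 fold change of 0.425 (limma adjusted p = 0.0485), opposite in sign to the main fit.

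None of 26 tested genes of cytochrome P450, conjugation and xenobiotic transport passed with limma, with 2 higher and 1 lower at an unadjusted p under 0.05. ALDH2, which oxidises acetaldehyde and other aldehydes, had 159 FPKM in control 1, 67.3 and 76.9 FPKM in controls 2 and 3, and 163 to 191 FPKM at nic10 (limma adjusted p = 0.172). CYP4F22 (LOC102458909), a fatty acid hydroxylase, had 38.3 to 47.7 and 30.8 to 32.3 FPKM (adjusted p = 0.232 by limma), and MGST2, a microsomal glutathione transferase, had 16.0 to 21.1 and 22.2 to 31.3 FPKM (adjusted p = 0.310 by limma).

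**Figure D3:**
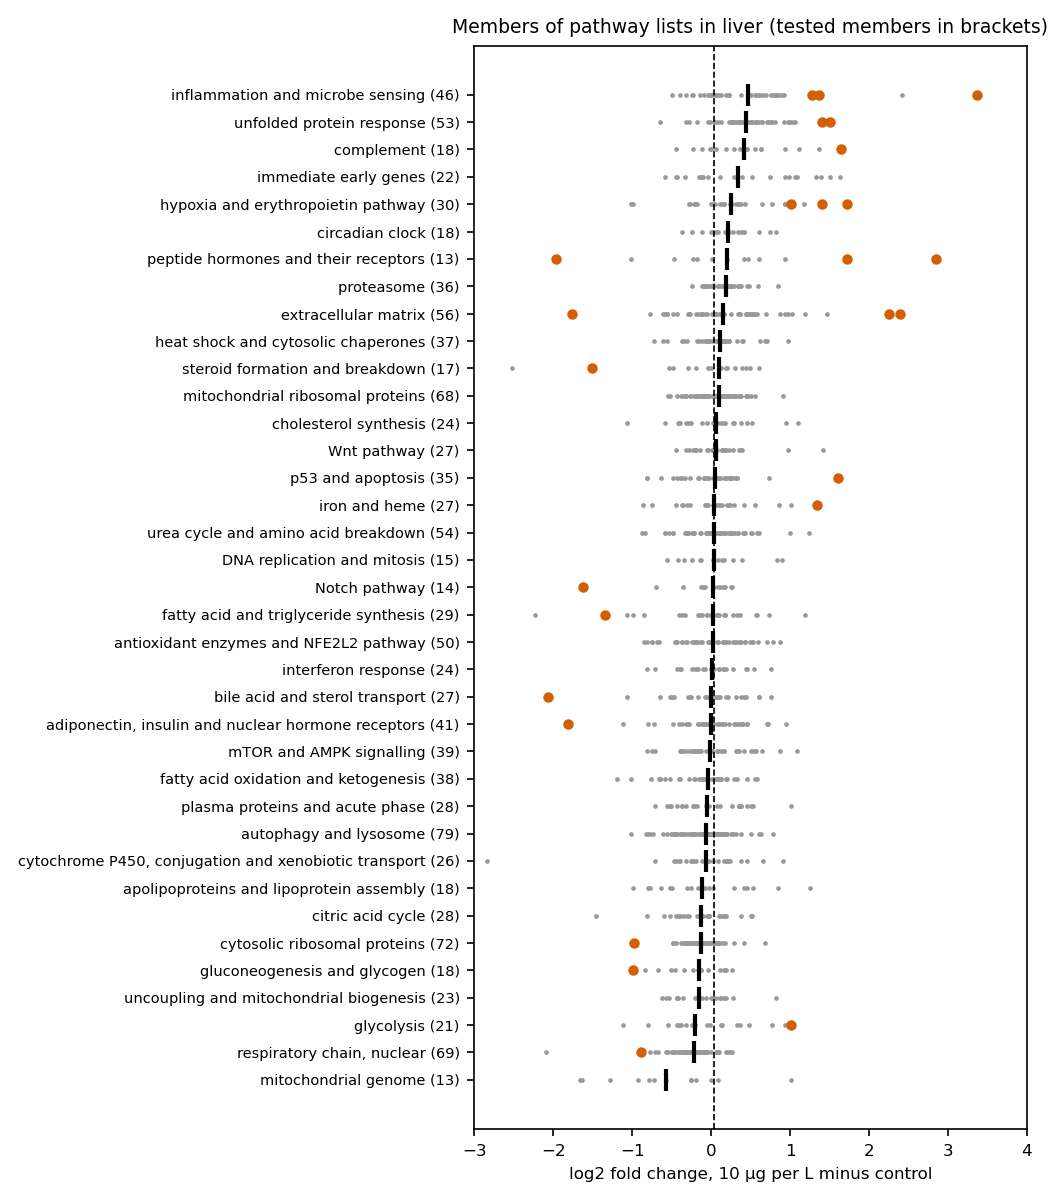
Log2 fold change at 10 µg per L minus control of each tested member of the pathway lists, in rows sorted by the list median. Grey points did not pass the threshold, orange points did, black bars are list medians and the dashed line is the median of all tested features, 0.04. The lists of inflammation and of the unfolded protein response have the highest medians, 0.47 and 0.44, and the mitochondrial genome has the lowest, -0.57.

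Genes of plasma proteins, ribosomes and growth control gave few calls. None of 28 plasma protein and acute phase genes passed with limma, 2 being higher and 3 lower at an unadjusted p under 0.05. PLG, plasminogen, had 1393 to 1588 FPKM in the controls and 1170, 1069 and 871 FPKM at nic10 (limma adjusted p = 0.254), and ITIH2, an inhibitor chain of hepatocytes, had 574 to 648 against 505, 474 and 321 FPKM (adjusted p = 0.295 by limma). In the list of 72 cytosolic ribosomal protein genes RPS28, a small subunit protein, had 714, 780 and 624 FPKM in the controls and 388, 284 and 411 FPKM at nic10, a fall of -0.98 (SE 0.20, limma adjusted p = 0.0493). It was the only call, and the list median was -0.13. The list's mean deviation was 0.40, -0.24 and -0.55 in nic10 libraries 1, 2 and 3, so library 1 lay above the controls and library 3 below them. RPL6 and RPLP2, of the large subunit, had adjusted p-values of 0.363 and 0.300, with fold changes of 0.68 and -0.48 on the log2 scale.

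In the Notch list HES4, a transcriptional repressor of the HES family, was the 1 call among 14 tested. It had 24.7, 44.8 and 54.2 FPKM in the controls and 15.9, 14.01 and 7.73 FPKM at nic10, a fall of -1.62 (SE 0.32, limma adjusted p = 0.0417), and 13.7 to 19.7 FPKM at nic50. Control 1 was again the lowest control. None of 27 Wnt genes, 15 genes of DNA replication and mitosis or 18 clock genes passed with limma, with 2, 2 and 1 of them higher and 0 lower at an unadjusted p under 0.05. None of 39 genes of mTOR and AMPK signalling passed, with 6 higher and 2 lower at that level. PRKAA1, a catalytic subunit of AMPK, the kinase that senses low ATP, had 7.51 to 9.55 FPKM in the controls and 10.7, 21 and 30.6 FPKM at nic10 (limma adjusted p = 0.140), and CAMKK2, which activates it, had 1.90 to 2.14 and 3.50 to 6.13 FPKM (adjusted p = 0.106 by limma).

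Immediate early genes, which respond within minutes to many stimuli, gave no call among 22 tested with limma. At an unadjusted p under 0.05, 8 were higher and 0 lower, against 8.8% and 4.75% of all tested features. FOS had 0.760 to 2.21 FPKM in the controls and 1.34, 5.96 and 16.6 FPKM at nic10 (limma adjusted p = 0.267). FOSL2 had 2.05 to 4.14 against 4.90, 7.36 and 13.4 FPKM (adjusted p = 0.150 by limma), and RHOB, a small GTPase, had 23.6 to 31.2 against 50.7, 37.0 and 76.0 FPKM (adjusted p = 0.117 by limma). In all 3 genes nic10 library 3 was the highest.

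In the iron and heme list FLVCR1, a membrane transporter long described as a heme exporter, was the only one of 27 tested genes to pass. It had 0.696, 1.03 and 0.745 FPKM in the controls and 5.39, 3.78 and 2.23 FPKM at nic10, a rise of 1.35 (SE 0.24, limma adjusted p = 0.0306). NCOA4, which delivers ferritin to the lysosome, had 50.0 to 65.8 FPKM and 37.0, 28.5 and 26.4 FPKM (adjusted p = 0.0773 by limma).

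ENTPD3, an enzyme that splits ATP outside cells, had 6.84, 10.5 and 9.26 FPKM in the controls and 1.30, 0.725 and 0.499 FPKM at nic10. Every nic10 library was far below every control. ENTPD3 fell by -2.43 (SE 0.22, limma adjusted p = 0.00107), and its adjusted p stayed at or below 0.00685 without any 1 library. It was intermediate at nic50, with 2.79 to 3.57 FPKM. RARRES1, a membrane protein named for its response to retinoic acid, had 15.9 to 16.4 FPKM in the controls and 49.3, 81.3 and 77.1 FPKM at nic10, a rise of 2.001 (SE 0.26, limma adjusted p = 0.00847). The nic50 livers were at the same height, with 43.0 to 78.7 FPKM.

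TSTD3, a protein with a rhodanese domain, had 1.02, 1.45 and 1.83 FPKM in the controls and 7.25, 6.73 and 7.75 FPKM at nic10, a rise of 1.77 (SE 0.20, limma adjusted p = 0.00373). TMEM109, a membrane protein, had 2.94 to 4.84 FPKM and 11.6, 13.1 and 30.2 FPKM, a rise of 1.95 (SE 0.31, limma adjusted p = 0.02). ABRACL rose by 1.56 (SE 0.24, limma adjusted p = 0.0149), from 2.26 to 3.44 FPKM in the controls to 8.05, 9.44 and 14.2 FPKM at nic10. In these 3 genes no nic10 library came near a control. UCHL1, a ubiquitin hydrolase best known from neurons, had 0.864, 0.483 and 0.222 FPKM in the controls and 2.42, 3.67 and 3.22 FPKM at nic10, a rise of 1.44 (SE 0.21, limma adjusted p = 0.0127), and it was higher still at nic50, with 4.998 to 6.09 FPKM. Among 18 listed neuron and glia markers, 15 were below 1 FPKM in all 6 livers.

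MAP3K6, a kinase upstream of stress-activated kinases, had 5.09 to 6.12 FPKM in the controls and 2.06, 2.13 and 2.95 FPKM at nic10, a fall of -1.003 (SE 0.18, limma adjusted p = 0.0313), with similar levels at nic50 (1.88 to 2.40 FPKM). TULP2 (LOC102448162) had 6.86, 14.04 and 18.9 FPKM in the controls and 1.02, 5.14 and 1.85 FPKM at nic10, a fall of -2.02 (SE 0.41, limma adjusted p = 0.0460).

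A further set of calls was named after the values were seen. MAP2K1, the kinase MEK1 that activates ERK, had 11.7, 12.4 and 13.5 FPKM in the controls and 32.7, 22.5 and 42.3 FPKM at nic10, a rise of 1.27 (SE 0.22, limma adjusted p = 0.0253). TRIB1, a pseudokinase that restrains lipid synthesis in liver, had 7.87 to 10.4 FPKM and 23.01, 16.7 and 29.4 FPKM, a rise of 1.20. MAL2, which takes part in transcytosis in hepatocytes, had 4.40 to 6.48 FPKM and 12.3, 8.97 and 13.1 FPKM, a rise of 1.03. In these genes nic10 library 2 was the lowest of its group. SLC28A3, a concentrative nucleoside transporter, had 5.995 to 7.10 FPKM in the controls, 11.6 to 16.0 FPKM at nic10 and 4.70 to 5.35 FPKM at nic50, and rose by 1.03 at nic10. RAMP3, which partners the receptors of calcitonin-like peptides, had 0.900 to 1.498 FPKM and 3.46 to 5.25 FPKM, a rise of 1.26. LDLRAD4, an inhibitor of TGF-beta signalling, had 33.6 to 44.1 FPKM and 61.9 to 74.6 FPKM, a rise of 0.84 (SE 0.17, limma adjusted p = 0.0453). The remaining symbols of this kind, RDM1, CCDC167, PRSS23, SMTNL2, CLSTN1 and MYZAP (LOC102447462), rose by 1.48, 1.21, 1.14, 1.09, 0.87 and 0.81 in that order.

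Of the 116 features 48 have no gene symbol, 27 of them higher and 21 lower. Their log2 fold changes ran from -3.86 to 4.41. Besides the mitochondrial RNA features above, 4 were singled out after their values were seen, and these do not include the largest rise or fall. LOC102461675 was the most abundant of them, with 2706, 3425 and 3195 FPKM in the controls and 23400, 10320 and 26360 FPKM at nic10, a rise of 2.58 (SE 0.35, limma adjusted p = 0.00960), and 9675 to 11180 FPKM at nic50. LOC102445604 had 4.77, 6.26 and 6.29 FPKM in the controls and 71.9, 51.8 and 94.1 FPKM at nic10, a rise of 3.41 (SE 0.22, limma adjusted p = 0.000134). The nic50 livers had 4.38 to 4.99 FPKM, the level of the controls. LOC102445731 had 76.3, 49.1 and 52.7 FPKM in the controls and 8.38, 5.32 and 5.66 FPKM at nic10, a fall of -3.01 (SE 0.22, limma adjusted p = 0.000180). LOC102450917 had 964, 1125 and 1101 FPKM in the controls and 441, 457 and 393 FPKM at nic10, a fall of -1.30 (SE 0.18, limma adjusted p = 0.0115). The groups were far apart in all 4.

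Markers of blood, vessel and other cells varied mostly between single libraries. T and cytotoxic lymphocyte markers summed to 73.0, 153.7 and 111 FPKM in controls 1, 2 and 3 and to 44.0, 12.4 and 11.7 FPKM at nic10. GNLY (LOC102447230), granulysin, carried this difference, with 67.3, 139 and 97.7 FPKM against 32.4, 0.450 and 0.449 FPKM (log2 fold change -4.57, SE 0.96, limma adjusted p = 0.0532). Of 21 listed markers 18 were found, and 13 of these were below 1 FPKM in all 6 livers. The list's median was -0.05. CD3E, a chain of the T cell receptor complex, had 1.76, 4.30 and 3.12 FPKM in the controls and 3.08, 3.13 and 2.63 FPKM at nic10 (log2 fold change 0.01, limma adjusted p = 0.996). PLVAP (LOC102446149), a protein of fenestrated vessels, had 3.35 FPKM in control 1 and 104 and 140 FPKM in controls 2 and 3, against 58.9 to 173 FPKM at nic10 (adjusted p = 0.701 by limma). Red blood cell markers summed to 12.4, 64.6 and 48.5 FPKM in the controls and 31.1, 16.3 and 7.27 FPKM at nic10, and 0 of 5 tested passed with limma, 0 also at an unadjusted p under 0.05. Their part in the other results was not tested. JCHAIN, the joining chain of secreted antibodies, had 2.76 to 5.56 FPKM and 14.8, 17.6 and 8.35 FPKM (adjusted p = 0.0655 by limma). No tested marker of endothelial cells (14), B and plasma cells (5), bile duct cells (6), smooth muscle (6), adipocytes (5), thrombocytes (5), granulocytes (3), gonad (2), mesothelium (1) or pigment cells (1) passed with limma. At an unadjusted p under 0.05 there were 2 thrombocyte markers, 1 each of B and plasma cells, mesothelium, adipocytes and gonad, and 0 of the others.

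SST and GUCA2A are also markers of cells outside the liver. AMY2A, pancreatic amylase, had 29.6, 40.5 and 39.1 FPKM in the controls and 44.2, 105 and 217 FPKM at nic10 (log2 fold change 1.45, SE 0.44, limma adjusted p = 0.169). Of 23 listed acinar pancreas markers only 10 were found among the features, of which 9 were below 1 FPKM in all 6 livers and 6 were at 0. Of 28 listed markers of endocrine pancreas and enteroendocrine cells 24 were found, of which 19 were below 1 FPKM in all 6 livers and 8 were at 0. SST was the only call among 4 tested. Enterocyte markers summed to 140.8 to 185.3 FPKM in the controls and 114.9 to 143.8 FPKM at nic10, and GUCA2A was the only call among 10 tested.

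Chromosome 15 held 16 of the 80 features that rose. Of 221 tested genes placed there by the RefSeq annotation, these 16 are 7.24%, and 0 fell, with 130 higher and 4 lower at an unadjusted p under 0.05 in limma. On the other placed chromosomes 50 of 9001 genes rose, or 0.555%. Their median log2 fold change was 0.54 on chromosome 15 and 0.04 elsewhere, and 52.0% of the chromosome 15 genes had all nic10 libraries above all controls, against 8.65%. The named calls were TMEM119, EIF2B1, YWHAH, CLTCL1, SNAP29, MLEC, PISD, PGAM5, GTF2H3, RSRC2, ANAPC7, TFIP11, GCN1 and BCL7A, named after their values were seen except TMEM119.

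TMEM119, a membrane protein of bone-forming cells and microglia, had 1.38, 1.16 and 1.57 FPKM in the controls and 6.26, 8.10 and 5.13 FPKM at nic10, a rise of 1.65 (SE 0.23, limma adjusted p = 0.0115). SNAP29, a SNARE protein of membrane fusion, had 25.8, 20.1 and 19.5 FPKM and 55.3, 41.6 and 46.4 FPKM, a rise of 1.10 (SE 0.18, limma adjusted p = 0.02). YWHAH, an adaptor of the 14-3-3 family, had 2.03 to 2.54 FPKM and 5.44 to 6.79 FPKM, a rise of 1.14 (SE 0.17, limma adjusted p = 0.0127). In all 3 the controls were tightly grouped below the nic10 libraries. EIF2B1, a subunit of the factor that recharges translation initiation, had 2.58 to 4.03 FPKM and 7.04 to 13.4 FPKM, a rise of 1.48. PISD, which makes phosphatidylethanolamine in mitochondria, had 4.28 to 6.09 FPKM and 9.77 to 14.3 FPKM, a rise of 1.08. PGAM5, a mitochondrial phosphatase, had 2.97 to 4.55 FPKM and 6.95 to 9.21 FPKM, a rise of 1.03. GCN1, which senses stalled ribosomes, had 4.17 to 4.82 FPKM and 8.06 to 12.2 FPKM, a rise of 0.93 (SE 0.19, limma adjusted p = 0.0473). The other 6 besides MLEC, namely CLTCL1, GTF2H3, RSRC2, ANAPC7, TFIP11 and BCL7A, rose by 1.14, 1.02, 0.98, 0.98, 0.93 and 0.90 in that order.

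The shift divided the controls themselves. Relative to the median of the other chromosomes, chromosome 15 stood at 0.45 in control 1 and at -0.21 and -0.22 in controls 2 and 3, on the log2 scale and against the control mean. It stood at 0.47, 0.51 and 0.51 in the nic10 libraries and at 0.51 to 0.54 in the nic50 libraries. Control 1 was thus within 0.1 of every exposed liver, and controls 2 and 3 stood apart with the set of 28 genes described above, 4 of which are on chromosome 15. The 16 calls became 0 without control 2, 1 without control 3 and 70 without control 1. Chromosome 15 genes also had a median of 0.67 in the gut at nic10, where the same 28 genes summed to 283 and 277 FPKM in gut controls 1 and 2 and to at most 5.42 FPKM in gut control 3 and the nic10 guts. They were also present in 1 exposed gut, nic50 library 3, at 270 FPKM. The labels name no factor that divides the controls, and the part of this division in the other calls was not tested. A fit with a covariate for controls 2 and 3 leaves control 1 as the only control library, and 29 features passed in it, 12 of them among the 116.

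**Figure D4:**
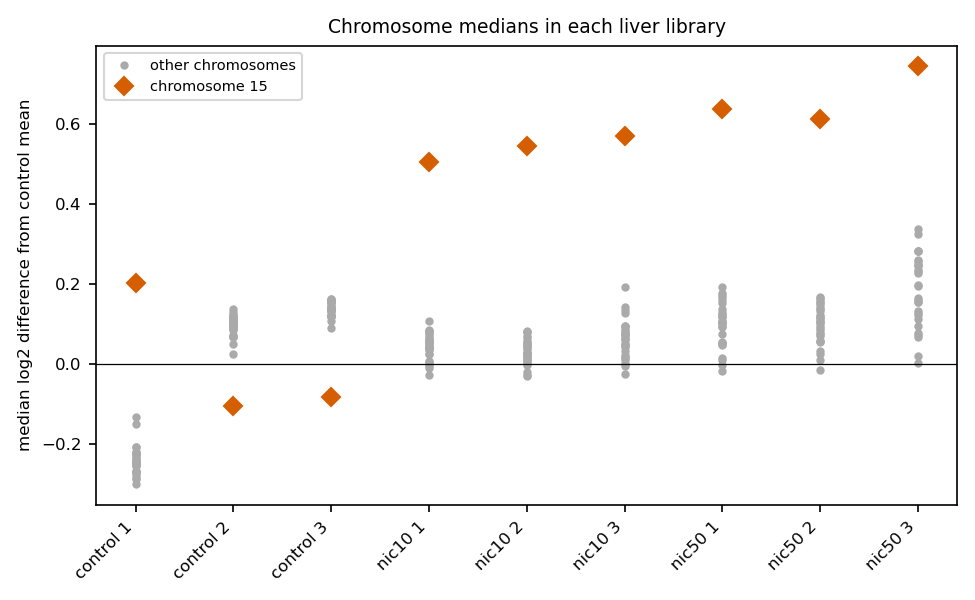
Median log2 difference from the control mean of the tested genes of each chromosome with at least 50 of them, in each liver library. Orange diamonds are chromosome 15 and grey points the other chromosomes. Chromosome 15 lies above the others in control 1 and in all exposed livers, and below them in controls 2 and 3.

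The same features at the higher concentration are given side by side, since both comparisons use the same 3 controls and cannot be taken as independent. At nic50 513 features passed, 4.71% of those tested, 402 higher (3.69%) and 111 lower (1.02%). Of the 80 features higher at nic10, 31 were also past the threshold and higher at nic50, and of the 36 lower ones 14 were also lower. The median change of the 80 was 1.44 at nic10 and 0.82 at nic50, and that of the 36 was -1.47 and -0.71. In 88 of the 116 the change had the same sign and was nearer to 0 at nic50, but the 116 were selected for passing at nic10, which alone favours smaller values in the other comparison. SST, SFTPD, TNFRSF6B, MARCO, C6, BCL2L1 and EPO did not pass at nic50, with limma adjusted p-values of 0.0735, 0.449, 0.492, 0.924, 0.467, 0.798 and 0.183. RARRES1, CISH, UCHL1 and TMEM119 passed there with log2 fold changes of 1.92, 2.48, 2.09 and 2.02. Whether the changes differed between the concentrations was not tested.

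In the gut at nic10 255 of 13475 features passed (1.89%) in a fit of all 18 libraries. Of the 116 liver features, 9 of those higher and 3 of those lower were past the threshold in gut, whatever the direction there. SST is among the 9 although it fell in gut. The liver change minus the gut change passed for 49 features, 0.364% of those tested, 20 of them among the 116. SST had 4.40 in that test (SE 0.50, limma adjusted p = 0.000323), and in gut it fell by -1.55 (SE 0.35, limma adjusted p = 0.0328). Its gut levels were 38.9, 19.9 and 25.3 FPKM in the controls and 8.48, 6.502 and 11.4 FPKM at nic10, with no overlap. PCOLCE and ENTPD3 had -2.23 and -2.01, with gut changes of 0.47 and -0.41 that did not pass. HSD3B1 (LOC102453952) had -2.27, IL17REL 1.275, MAP2K1 1.5 and LOC102445604 3.998. In each of these the liver change was the larger of the 2 in size. IL17REL and HSD3B1 had 0 FPKM in the gut controls and means of 0.0950 and 0.837 FPKM in the nic10 guts. ENTPD3 had gut means of 0.804 and 0.318 FPKM in controls and nic10. With 1 added before taking logs, gut changes at such levels are understated. MAP2K1 and LOC102445604 had gut control means of 29.8 and 186.5 FPKM. C9 and FGG, which did not pass in liver, had differences of 1.39 and 2.57, and FGG fell in gut by -2.18 (SE 0.16, limma adjusted p = 9.5e-07). The named genes past the threshold and higher in both tissues were TSTD3, SNAP29, RSRC2, BCL7A and LDLRAD4, with changes in gut of 1.33, 1.35, 1.01, 1.03 and 0.89. SNAP29, RSRC2 and BCL7A are on chromosome 15, whose level divides the liver controls, and the part of that division was not tested.

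**Figure D5:**
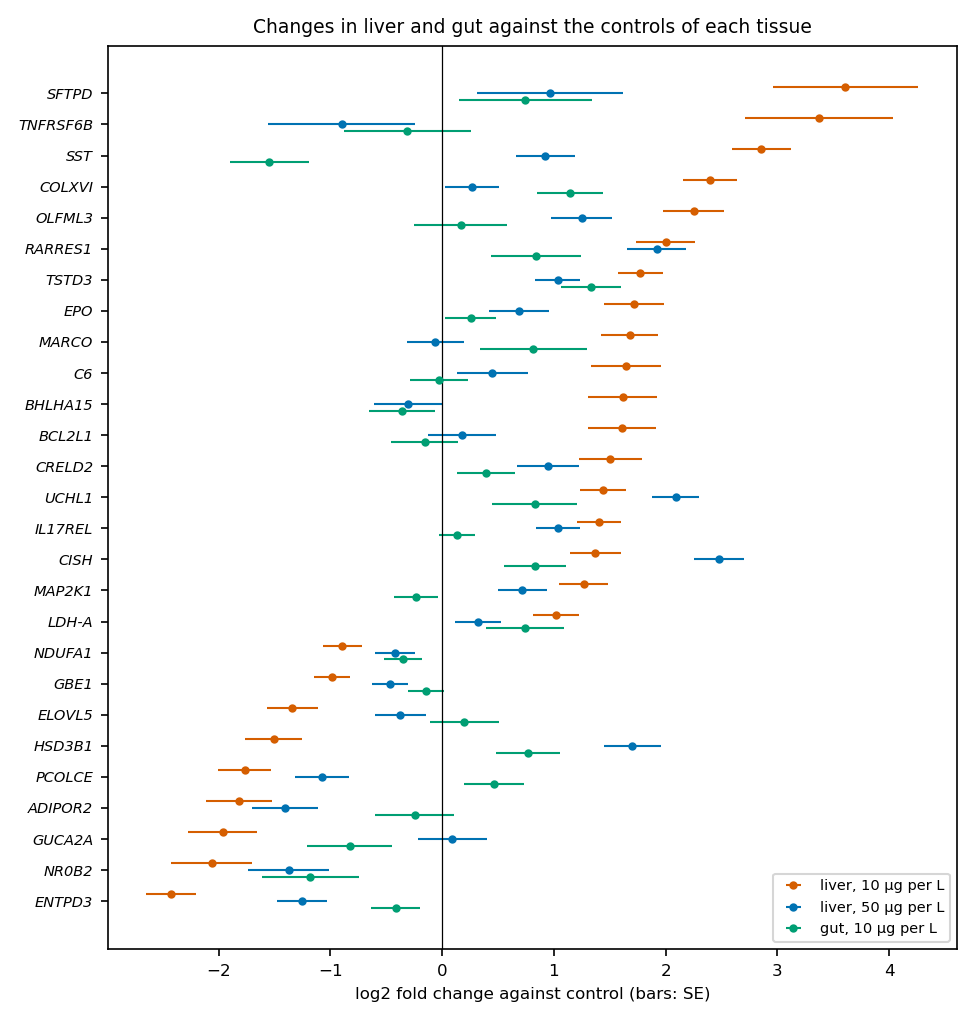
Log2 fold changes against control of 27 genes named in the text, in liver at 10 and 50 µg per L and in gut at 10 µg per L, with the standard error as a bar. The liver comparisons share their 3 controls. SST is at 2.85 in liver and -1.55 in gut, and HSD3B1 is at -1.51 at 10 µg per L and 1.70 at 50 µg per L.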

How the data were processed

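RNA was sequenced from liver and gut of control, nic10 and nic50 turtles, and 1 table of FPKM values for 24880 features in 18 libraries was deposited by the authors, per the file headers. CASAVA is named in the submitters' processing notes. The aligner, genome build and counting method were not given in the sources used here, so overlapping genes and near-identical copies are uncertain. Symbols came from the table (13431) or from RefSeq, assembly ASM4963464v1 (975), and 10474 features have none. That assembly was used only for names and for which chromosome a gene is on.

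Features that reached 1 FPKM in 3 or more of 9 livers were tested on log2(FPKM + 1) with limma 3.58.1 (lmFit, eBayes with trend) in R 4.3.3, using 3 groups and Benjamini-Hochberg adjustment at 0.05. Liver and gut changes were compared in a fit of 18 libraries. Named genes were the 15 highest and 15 lowest changes with a symbol past the threshold and without overlap, every list member past it, up to 3 members of each list by p, 9 antioxidant genes and 2 abundant markers per cell list. Genes named outside the rule are marked as such. Members and lists were chosen with earlier results of these data known. The alternatives were another pseudocount, filter, scaling and fit, library weights, a replicate block, averaged or covariate-adjusted look-alike libraries, and leaving out each library. The method was tested on simulated data, in which libraries varied independently and the controls were not divided. That test cannot show how reliable the calls are where they depend on single libraries. Depth is unknown, so no counting error is given.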

Additional observations from a re-analysis of the deposited data

Results flagged for a closer look

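For 9 of the genes named here the change at 10 µg per L differed between liver and gut in the test of the difference itself (limma, adjusted over all tested features). The test passed for 49 features in all, 20 of them among the 116. The liver change minus the gut change was 4.40 for SST (adjusted p = 0.000323), 3.998 for LOC102445604 (adjusted p = 0.000128) and 2.57 for FGG (adjusted p = 5.7e-05). It was 1.5 for MAP2K1 (adjusted p = 0.0282), 1.39 for C9 (adjusted p = 0.0206) and 1.275 for IL17REL (adjusted p = 0.0228). It was -2.01 for ENTPD3 (adjusted p = 0.00668), -2.23 for PCOLCE (adjusted p = 0.0164) and -2.27 for HSD3B1 (LOC102453952) (adjusted p = 0.0228). IL17REL, ENTPD3 and HSD3B1 had means below 1 FPKM in both gut groups, where changes are understated. Over 16 alternatives the difference stayed past the threshold in 16 for SST, LOC102445604 and FGG, 15 for ENTPD3, 14 for PCOLCE, 11 for C9, 10 for IL17REL, 9 for MAP2K1 and 8 for HSD3B1.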

How the results depend on the processing

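The count of 116 features (80 higher, 36 lower) was 52 (31 and 21) with no filter and 76 (40 and 36) with trimmed-mean scaling. It was 125 (63 and 62) with quantile normalization and 2804 (1187 and 1617) with library weights, which gave most weight to nic10 library 2. It was 20 (15 and 5) in a fit of the 6 libraries alone, 7 (4 and 3) with look-alike libraries averaged and 29 (21 and 8) with a covariate for controls 2 and 3, a fit in which control 1 is the only control and is assumed to vary like the other groups. Leaving out 1 library gave 17 to 569 features, 11 to 286 higher and 6 to 303 lower. Same-numbered control and nic10 livers correlated in their deviations from the group mean at 0.115, -0.12 and 0.247. Those with different numbers correlated at -0.313 to 0.163. With 3 libraries per group these values cannot decide whether replicate numbers pair the libraries. A replicate block gave 76 (50 and 26), 70 of them among the 116. The 49 features that differed between liver and gut became 28 with a pseudocount of 0.1, 29 with a replicate block and 14 to 200 without 1 library. No called gene named here reversed, the mitochondrial RNA features not being among those followed. Without 1 library, PLVAP ranged from -0.417 to 2.09, SOD2 from -0.324 to 0.112, GSR from -0.108 to 0.426, NFE2L2 from -0.152 to 0.0933 and NQO1 from -0.209 to 0.205, on the log2 scale. PLVAP was -0.659 and NQO1 0.425 with library weights, NFE2L2 was 0.0624 with averaging and 0.277 with the covariate, and KEAP1 (LOC102454403) was -0.0773 with the covariate. The cause was not tested. Unknown depth limits what can be said of genes near 1 FPKM.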
